A study of Mus musculus with 8 samples.

Results

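Cells of the early nephric duct were compared with cells of the neighbouring mesoderm at embryonic day 9.5 (E9.5) of the mouse. The members were 4 of the 8 microarrays of the series, chosen by their titles alone. The 2 duct arrays held Hoxb7-GFP-positive, Flk1-negative cells of the rostral and of the caudal part, 1 array each, and the 2 mesoderm arrays held Wt1-GFP-positive cells of the rostral and of the caudal part. All embryos were of the ICR strain, at E9.5, untreated, and the cells were sorted by flow cytometry. Hoxb7-GFP is a transgene in which the Hoxb7 promoter drives green fluorescent protein, and Wt1-GFP is a reporter read from Wt1, whose construct the labels do not describe. Flk1, the product of Kdr, is a receptor of endothelial cells, and the labels name a selection against it for the duct cells only. The other 4 arrays, Hoxb7-GFP-positive cells at E8.75, E10.5 and E11.5, were in the model. Of these, only the rostral and caudal E10.5 arrays informed the spread and the effects of position and slide row. The E8.75 and E11.5 arrays, 1 each, were fitted exactly and added nothing to them. The study set the ureteric bud precursors against the Wt1-GFP mesoderm to find how they differ from adjacent precursors of the nephron lineage.

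The nephric duct, also called Wolffian duct, is an epithelial tube that arises from the intermediate mesoderm and grows caudally towards the cloaca. Its caudal part gives rise to the ureteric bud when GDNF from the surrounding mesenchyme acts on the receptor Ret in the duct. The mesoderm beside it keeps a mesenchymal or coelomic character, and its Wt1-expressing cells contribute to nephrons, to the gonads and to the lining of the body cavity.

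A level is the log2 processed signal minus the log2 of the 75th percentile of its array, so 0 stands for the signal that 3 in 4 spots do not exceed. Paired levels in the text are given rostral first and caudal second. A difference is the mean of the rostral and the caudal pair difference, duct minus Wt1-GFP, on the log2 scale. It comes with its standard error (SE) and the adjusted p of limma, a linear model fitted to 27400 genes with Benjamini-Hochberg adjustment. With 1 array per position and sort, that model had 2 residual degrees of freedom. Its spread was how far the rostral minus caudal difference varied between E9.5 duct, E10.5 duct and E9.5 Wt1-GFP cells. Its p-values measure only that spread between these arrays, not a spread between repeated samples. The labels do not say whether samples came from separate embryos. The array software marks each spot as well above background or not, and for a gene not so marked on 1 or both arrays of the dimmer sort the fold is a bound, written "at least". The mark was given to 67.1% and 67.3% of the probes on the duct arrays, against 61.5% and 60.6% on the Wt1-GFP arrays, and no spot was saturated. Both duct arrays lay in the first row of the slide and both Wt1-GFP arrays in the second. Within these 4 arrays slide row and reporter cannot be told apart.

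The genes behind the labels were measured first. Wt1, a zinc finger factor of the coelomic lining and nephron progenitors, had levels of -0.20 and -1.94 in the duct cells, against 4.08 and 4.01 in the Wt1-GFP cells. It was 34.7-fold lower in the duct cells (difference -5.12, SE 1.08, limma adjusted p = 0.260), yet well above background on both duct arrays. Hoxb7 itself was 2.44 and 2.30 in the duct cells and 1.5 and 1.63 in the Wt1-GFP cells, a difference of only 0.81 (SE 0.20, limma adjusted p = 0.290). The endogenous gene was thus clearly present in both sorts, with no overlap between them. Kdr was 1.95 and 1.84 in the duct cells, against 2.10 and 2.10 in the Wt1-GFP cells, a difference of -0.20 (SE 0.19) for the gene behind the negative selection, which was well above background on all 4 arrays.

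The duct markers Pax2, Lhx1, Gata3 and Ret went with the labels. Pax2, a paired-box factor needed for the duct and for nephron progenitors, stood at 5.18 and 5.37 in the duct cells, against 2.71 and 1.32 in the Wt1-GFP cells. Lhx1, a LIM homeobox factor of the nephric lineage, was 3.1 and 3.69 in the duct cells and 0.49 and -0.07 in the Wt1-GFP cells. Gata3, a zinc finger factor that guides duct growth, was 1.69 and 3.0 in the duct cells and -1.0 and 0.08 in the Wt1-GFP cells. Each of these was well above background on both Wt1-GFP arrays too, and was 9.56-fold, 9.07-fold and 7.0-fold higher in the duct cells. Ret reached -0.66 and 2.23 in the duct cells, while neither Wt1-GFP array (-6.12 and -4.92) was well above background for it, which puts it at least 30.0-fold higher in the duct cells.

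No gene passed the limma test at an adjusted p of 0.05 (0% of 27400, lowest adjusted p = 0.147), whereas at an unadjusted p of 0.05 there were 1886 genes higher in the duct cells (6.88%) and 2123 lower (7.75%). With the spread allowed to follow signal intensity, which borrows more information between genes, 306 genes were higher (1.12%) and 388 lower (1.42%) at an adjusted p of 0.05. With slide row as a further term, whose effect the E10.5 arrays then set, both versions called 0 genes (lowest limma adjusted p = 0.77 and 0.318), and the differences of Ret, Cldn6 and Wt1 were 6.25, 5.86 and -8.36. Among the 131 genes named here, that term moved the fold by over 1.5 times in 84, to a smaller one or across 0 in 49 and to a larger one in 35, so folds and bounds below are values without it. On the log2 scale 21 differences became over 1.5 times smaller. With the term, those of genes lower in the duct cells were -0.54 for Podxl, -0.46 for Twist1, -1.12 for Osr1, -1.34 for Ibsp, -1.23 for Hand2, -3.25 for Alx1, -2.15 for Bmper, -3.87 for Adh1, -1.97 for Col1a1 and -0.73 for Vim. Likewise, those of genes higher in the duct cells were 0.27 for Elf3, 0.86 for Wnt8b, 0.6 for Ccnd1, 1.74 for Cdh16, 2.21 for Spint1, 2.28 for Spint2, 1.68 for Gata3, 0.79 for Fgfr2 and 1.66 for Npnt. Kdr and Ephb4, with differences near 0, were also among the 21. The sign changed for 5 more, Lgr4, Rxra, Hoxd1, Pdgfa and Cdh2, as given with each. The duct and Wt1-GFP cells are therefore described here by size: a gene is counted where it was at least 4-fold apart in the same direction in both position pairs. By that count 245 genes were higher in the duct cells (0.894%) and 164 lower (0.599%), together 1.49% of all genes. Of the 245, 65 were above background on neither Wt1-GFP array, and of the 164, 27 were above background on neither duct array. A looser count, that both duct arrays lay beyond both Wt1-GFP arrays, held for 5573 genes upwards (20.3%) and 7595 downwards (27.7%), with a median difference over all genes of -0.046.

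**Figure D1:**
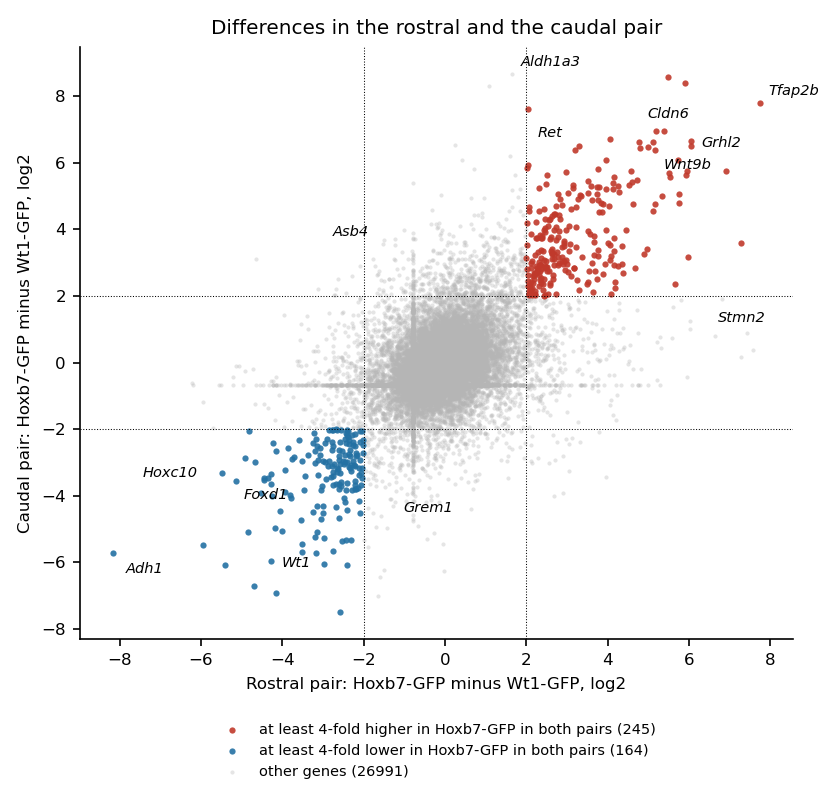
Each point is 1 of the 27400 genes, with the log2 duct minus Wt1-GFP difference in the rostral pair on the x axis and in the caudal pair on the y axis, and coloured points are the 245 genes at least 4-fold higher and the 164 at least 4-fold lower in both pairs. Dim levels were raised to the lowest measurable level of their array for the plot, and the straight bands hold such genes. Before that step the pair differences followed each other loosely (Pearson r = 0.369 over genes, which are not independent).

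The transcription factors of the duct had the highest median difference of the 35 gene lists described. Of 15 listed factors, 8 were at least 4-fold higher in both pairs and 0 lower, with a median difference of 3.18. By direction alone, 11 were higher and 4 lower in the duct cells. Without overlap there were 10 upwards and 1 downwards, against 20.3% and 27.7% of all genes. The AP-2 genes stood out. Tfap2b, which is known from the distal nephron, was 3.79 and 3.51 in the duct cells, against -4.06 and -6.53 in the Wt1-GFP cells, where neither array was well above background. Tfap2b was at least 219-fold higher, the largest bound among the genes named here. Tfap2a had levels of 2.08 and 2.42 in the duct cells and -6.24 and -4.09 in the Wt1-GFP cells, where 1 array measured it (at least 77.5-fold higher). Sim1, a basic helix-loop-helix factor known from the hypothalamus and also made in the duct, was 1.87 and 1.63 in the duct cells, against -3.64 and -4.06 in the Wt1-GFP cells, at least 48.5-fold higher. These factors were high at both positions of the duct and at or near background at both positions of the mesoderm. Emx2, needed for the duct epithelium, was 1.43 and 2.07 in the duct cells and -0.41 and -3.16 in the Wt1-GFP cells, with its gap mainly in the caudal pair.

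**Figure D2:**
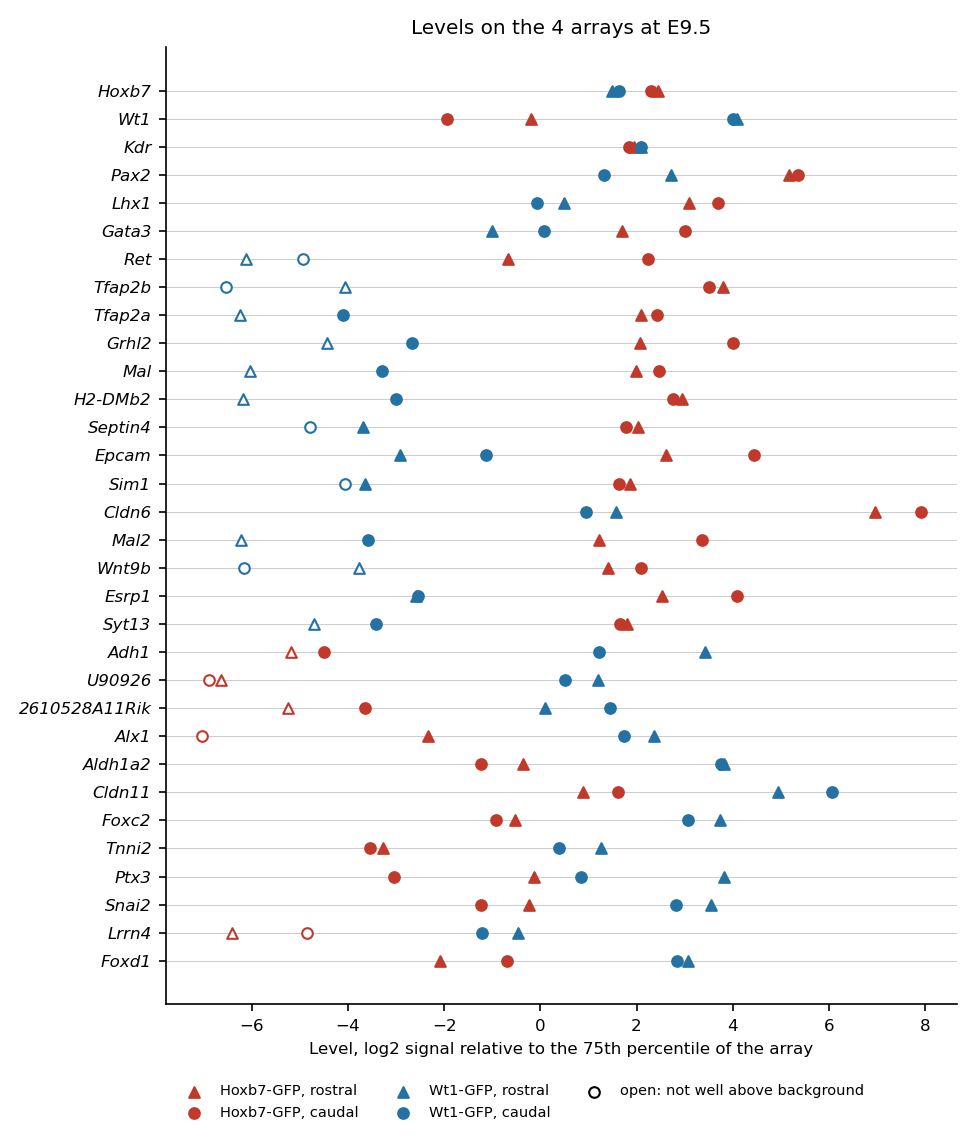
Levels (log2 signal over the 75th percentile signal) of named genes on the 4 arrays, with duct cells in 1 colour and Wt1-GFP cells in the other, and open symbols where the array was not well above background. Cldn6 and Pax2 were bright on both duct arrays, while Wt1, Aldh1a2 and Foxc2 were bright on both Wt1-GFP arrays.

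Of 18 genes of GDNF and Ret signalling, 5 were at least 4-fold higher in both pairs and 1 lower, and the median difference was 0.38 in the rostral pair and 1.74 in the caudal pair. The receptors led. Gfra1, the co-receptor that binds GDNF, had levels of 0.02 and 1.71 in the duct cells, against -2.30 and -2.11 in the Wt1-GFP cells (8.43-fold higher). Gfra3, the co-receptor for artemin, went the other way and was 7.56-fold lower in the duct cells (-2.10 and -1.65, against 0.97 and 1.12 in the Wt1-GFP cells). Cxcr4, a chemokine receptor known as a target of Ret signalling in the bud, was 13.9-fold higher (5.55 and 5.73 in the duct cells, 1.55 and 2.13 in the Wt1-GFP cells). Myb, a transcription factor, was 6.23-fold higher. Etv4, an ETS factor downstream of Ret and of FGF receptors, was 2.87 and 4.25 in the duct cells and 1.30 and 2.58 in the Wt1-GFP cells. Its caudal level exceeded its rostral one in both sorts, and it was 3.08-fold higher in the duct cells, short of the 4-fold count. Ret too was higher on the caudal than on the rostral duct array, and 12 of the 18 genes had their highest level on the caudal duct array.

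Products of the duct epithelium were mostly higher in the duct cells: 7 of the 16 measured were at least 4-fold higher in both pairs, 0 were lower, and the median difference was 1.92. Wnt9b, the ligand by which the duct induces nephrons, was 1.40 and 2.10 in the duct cells, against -3.76 and -6.16 in the Wt1-GFP cells, where neither array was well above background (at least 54.6-fold higher, limma adjusted p = 0.179). Mal, a protein of apical membranes, was 2.0 and 2.47 in the duct cells and -6.03 and -3.29 in the Wt1-GFP cells, where 1 array measured it (at least 58.1-fold). Calb1, a calcium-binding protein of the ureteric tree, was 18.1-fold higher (0.40 and 1.83 in the duct cells, -2.93 and -3.18 in the Wt1-GFP cells). Wfdc2, a secreted protein of epithelia, was 22.7-fold higher (4.55 and 5.08 in the duct cells, 0.81 and -0.19 in the Wt1-GFP cells), and Cdh16, the kidney cadherin, was 8.751-fold higher (-0.14 and -1.21 in the duct cells, -3.88 and -3.73 in the Wt1-GFP cells). Mal2, a protein of transcytosis, was 1.23 and 3.37 in the duct cells and -6.23 and -3.59 in the Wt1-GFP cells, at least 67.2-fold higher. Each of these genes was higher on both duct arrays than on both Wt1-GFP arrays, though a second probe of Calb1 gave a difference of only 1.34.

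Epithelial genes, grouped by role, were higher in the duct cells mainly among junction and polarity proteins. Among 12 measured epithelial transcription and splicing regulators, 3 were at least 4-fold higher in the duct cells in both pairs, 0 were lower, and the median difference was 0.13. Grhl2, a Grainyhead-like factor that maintains epithelial junctions, was 2.08 and 4.0 in the duct cells, against -4.44 and -2.66 in the Wt1-GFP cells, where 1 array measured it (at least 81.5-fold higher). Esrp1, the epithelial splicing regulator, was 2.54 and 4.08 in the duct cells and -2.59 and -2.54 in the Wt1-GFP cells, 58.5-fold higher (difference 5.87, SE 0.47, limma adjusted p = 0.147). Elf3, an epithelial ETS factor, was 4.49-fold higher (-1.22 and 0.21 in the duct cells, -3.26 and -2.08 in the Wt1-GFP cells). Of the whole list, 4 did not overlap upwards and 1 downwards, against 20.3% and 27.7% of all genes.

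Of 20 measured tight junction genes, 6 were at least 4-fold higher in both pairs and 1 lower, with a median difference of 2.24. In the upward direction 14 of the 20 did not overlap, against 20.3% of all genes. Cldn6, a claudin of embryonic epithelia, was 6.95 and 7.91 in the duct cells, against 1.56 and 0.95 in the Wt1-GFP cells. It was 72.2-fold higher (difference 6.17, SE 0.46, limma adjusted p = 0.147), and all 4 arrays measured it. Marveld2 (tricellulin) and Marveld3, both membrane proteins of the tight junction, were at least 29.1-fold and at least 25.5-fold higher. Cldn4 was 15.1-fold higher (0.22 and 2.45 in the duct cells, -2.26 and -2.91 in the Wt1-GFP cells), and Cldn8, a claudin of the distal nephron and collecting duct, was at least 14.1-fold higher (-1.08 and 0.46 in the duct cells, -6.19 and -6.39 in the Wt1-GFP cells). Of the 20, 4 were lower in the duct cells, 2 of them without overlap, and at least 4-fold lower in both pairs was Cldn11 alone. This claudin, known from Sertoli cells and myelin, had levels of 0.89 and 1.61 in the duct cells, against 4.95 and 6.07 in the Wt1-GFP cells, and was 19.2-fold lower in the duct cells.

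Of 16 genes of apicobasal polarity, membrane traffic and surface proteolysis, 7 were at least 4-fold higher and 0 lower, with a median difference of 2.12. Crb3, an apical polarity protein, was 0.33 and 0.85 in the duct cells and -4.99 and -4.45 in the Wt1-GFP cells, at least 26.2-fold higher. St14 (matriptase), a membrane serine protease of epithelia, was at least 51.9-fold higher (0.82 and 2.34 in the duct cells, -6.09 and -4.56 in the Wt1-GFP cells). Its partner protease Prss8 was 15.9-fold higher and the inhibitors that act on both, Spint1 and Spint2, were 15.6-fold and 11.9-fold higher. The protease pair and the inhibitor pair were thus all higher in the duct cells. Rab25, a small GTPase of apical recycling, and Ap1m2, the epithelial clathrin adaptor subunit, were at least 9.92-fold and at least 11.9-fold higher. The protease and inhibitor probes differed in size, a second one giving 1.02 for Prss8 and 1.76 for Spint2.

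Adhesion molecules were less uniform: 1 of 15 was at least 4-fold higher in both pairs and 0 were lower, with a median of -0.16 in the rostral pair and 1.28 in the caudal pair. That gene was Epcam, the pan-epithelial adhesion molecule, with 2.62 and 4.44 in the duct cells, against -2.93 and -1.13 in the Wt1-GFP cells, 47.1-fold higher (difference 5.56, SE 0.51, limma adjusted p = 0.158). Cdh1 (E-cadherin), which marks most epithelia, was only -2.26 and -2.39 in the duct cells, where both arrays measured it, against -5.91 and -6.15 in the Wt1-GFP cells, where neither did (at least 3.48-fold higher). Cdh2 (N-cadherin) was 5.50 and 5.43 in the duct cells and 6.23 and 5.77 in the Wt1-GFP cells, a difference of -0.53 that was 0.02 with slide row as a term. Cdh11, a cadherin of mesenchyme, was 4.96-fold lower in the duct cells over the mean of both pairs, with a difference of -1.11 by its other probe. Of 11 intermediate filament genes, 0 were at least 4-fold higher and 2 lower: Krt19, a keratin of simple epithelia and of mesothelium, was 9.71-fold lower (-2.93 and -2.80 in the duct cells, 0.78 and 0.05 in the Wt1-GFP cells), and Des (desmin), a muscle and mesenchyme filament, was 10.0-fold lower. Vim (vimentin) was 2.46-fold lower in the duct cells.

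The letters CAGGTG, on either strand, are an E-box that Snail and Zeb repressors are known to bind in promoters of epithelial genes. RefSeq promoters (GRCm38.p6, 250 bases before to 50 after each start) were found for 151 of the 245 genes at least 4-fold higher and 93 of the 164 lower. The E-box was present in the promoter of 67 of the 151 genes (44.4%) and of 10 of the 93 (10.8%), against 3004 of 13611 tested genes with a promoter (22.1%) and 6098 of 27025 genes of the whole table (22.6%). In genes with a single listed promoter the shares were 46.5% of 114 higher genes, 10.53% of 76 lower genes and 18.7% of 11092 tested genes. The same letters read backwards, GTGGAC, on either strand, were found in 17 of the 151 (11.3%), 11 of the 93 (11.8%) and 1771 of the 13611 (13%). The median GC share of these promoters was 62.0% for the higher genes, 58.3% for the lower ones and 59.0% for all tested, and the part of base composition was not tested beyond the reversed letters. Genes with the E-box in a promoter made up 8 of 16 in the tight junction list and 7 of 10 in the polarity list. In the tight junction list they were 3 of 4 genes at least 4-fold higher in the duct cells and 5 of 12 that were not. For the polarity list these counts were 4 of 5 and 3 of 5. The Grainyhead-like palindrome AACCGGTT was rare, with 1 of 151 higher, 0 of 93 lower and 32 of 13611 tested genes holding it. A match is a run of letters, not evidence of binding, and an effect of any binding factor on these genes was not tested.

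Promoters of 4 genes, chosen from those at least 4-fold higher with the E-box, show where it lies, written 5′ to 3′ on the strand of the gene with the E-box in capitals. They are Cldn6 (chr17:23679115-23679414, plus strand), Epcam (chr17:87635729-87636028, plus strand), Crb3 (chr17:57061951-57062250, plus strand) and Spint2 (chr7:29281928-29282227, minus strand).
Cldn6: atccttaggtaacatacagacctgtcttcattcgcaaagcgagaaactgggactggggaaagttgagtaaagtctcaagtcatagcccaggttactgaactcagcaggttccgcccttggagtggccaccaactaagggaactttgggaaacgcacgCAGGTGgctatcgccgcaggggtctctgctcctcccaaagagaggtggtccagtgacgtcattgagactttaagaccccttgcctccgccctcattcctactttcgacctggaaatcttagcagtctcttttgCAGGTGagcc
Epcam: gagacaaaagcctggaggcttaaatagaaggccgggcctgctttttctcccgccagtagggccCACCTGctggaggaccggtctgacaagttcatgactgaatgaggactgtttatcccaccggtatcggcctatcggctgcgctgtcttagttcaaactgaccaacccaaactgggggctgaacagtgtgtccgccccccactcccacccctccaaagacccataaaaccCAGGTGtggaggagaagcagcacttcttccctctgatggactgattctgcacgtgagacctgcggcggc
Crb3: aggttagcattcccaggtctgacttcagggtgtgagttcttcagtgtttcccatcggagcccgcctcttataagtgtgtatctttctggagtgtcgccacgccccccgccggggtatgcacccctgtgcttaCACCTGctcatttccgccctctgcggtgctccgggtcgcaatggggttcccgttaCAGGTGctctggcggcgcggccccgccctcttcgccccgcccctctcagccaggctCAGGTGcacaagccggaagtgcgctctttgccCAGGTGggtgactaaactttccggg
Spint2: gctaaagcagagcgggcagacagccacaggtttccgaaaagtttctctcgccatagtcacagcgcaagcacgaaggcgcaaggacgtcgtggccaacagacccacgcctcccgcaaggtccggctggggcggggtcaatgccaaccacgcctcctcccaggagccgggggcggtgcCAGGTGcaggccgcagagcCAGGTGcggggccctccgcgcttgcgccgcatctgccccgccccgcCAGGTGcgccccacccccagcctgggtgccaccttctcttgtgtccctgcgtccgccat
These genes are the 72.2-fold, 47.1-fold, at least 26.2-fold and 11.9-fold higher ones of the preceding lists. The promoters of Cldn6 and Epcam hold 2 copies of the E-box each, that of Spint2 holds 3 and that of Crb3 holds 4.

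Basement membrane genes differed in both directions. Of 25 measured, 2 were at least 4-fold higher and 3 lower in both pairs, and the median difference was 0.65. Among them 14 did not overlap upwards and 6 downwards, against 20.3% and 27.7% of all genes. Frem2, a protein of the Fraser complex beneath epithelia, was 13.1-fold higher (3.71 and 5.41 in the duct cells, 0.99 and 0.72 in the Wt1-GFP cells), whereas its partner Frem1 was 7.88-fold lower. Npnt (nephronectin), the ligand with which the duct engages the neighbouring mesenchyme, was 2.59 and 4.92 in the duct cells and 1.18 and 1.26 in the Wt1-GFP cells, 5.82-fold higher over the mean. Its receptor subunit Itga8 was -1.93 and -6.84 in the duct cells, against 0.47 and 1.12 in the Wt1-GFP cells, at least 18.9-fold lower in the duct cells. Ligand and receptor of this pair were therefore higher in opposite sorts, though Npnt was well above background on both Wt1-GFP arrays too. Itga6, a laminin receptor subunit, was 5.21-fold lower in the duct cells by its brighter probe, while its other probe gave a difference of 1.69 in the opposite direction.

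On the mesodermal side, transcription factors of mesenchyme were lower in the duct cells. Of 18 listed, 10 were at least 4-fold lower in the duct cells in both pairs and 0 higher, and the median difference was -3.01. Downwards, 17 did not overlap, against 27.7% of all genes. Foxc2, a forkhead factor of paraxial and intermediate mesenchyme, was -0.52 and -0.92 in the duct cells, against 3.74 and 3.08 in the Wt1-GFP cells, 17.5-fold lower (difference -4.13, SE 0.34, limma adjusted p = 0.147). Its paralogue Foxc1 was at least 22.9-fold lower, Foxd1, the factor of kidney stroma, was 20.4-fold lower (-2.08 and -0.69 in the duct cells, 3.07 and 2.85 in the Wt1-GFP cells), and Foxd2 was 15.6-fold lower. Snai2 (Slug), a repressor of epithelial genes, was -0.23 and -1.23 in the duct cells, against 3.56 and 2.83 in the Wt1-GFP cells, 15.2-fold lower, and Snai1 was at least 7.88-fold lower. Twist1, which also represses epithelial genes, was 6.65-fold lower and Meox1, a somite and mesenchyme homeobox factor, 9.42-fold lower. Among 19 matrix and growth factor receptor genes of mesenchyme, 4 were at least 4-fold lower and 0 higher, with a median difference of -1.86. They were Col1a1 (8.06-fold) and Col3a1, fibrillar collagens (18.6-fold), Tgfbi, a secreted matrix protein (22.4-fold), and Pdgfra, the receptor of mesenchymal progenitors (9.74-fold).

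Genes of the coelomic lining were mostly lower in the duct cells too, 7 of 13 measured at least 4-fold in both pairs and 0 higher by that count, with a median difference of -3.42. Besides Wt1 itself they included Aldh1a2, the main retinoic acid synthesising enzyme of the embryo, at -0.37 and -1.22 in the duct cells, against 3.82 and 3.75 in the Wt1-GFP cells (23.9-fold lower, difference -4.58, SE 0.65, limma adjusted p = 0.196). Gata6, a zinc finger factor, was 10.69-fold lower. Bnc1, a zinc finger factor of mesothelium, and Podxl, the sialomucin of coelomic cells and podocytes, were at least 15.8-fold and at least 10.8-fold lower. Lrrn4, another gene of mesothelium, was -6.41 and -4.86 in the duct cells, where neither array measured it, against -0.47 and -1.22 in the Wt1-GFP cells (at least 15.6-fold lower). Against this direction, 2 of the 13 coelomic genes were higher in the duct cells, among them Emx2 (11.6-fold over the mean). Of the 13, 9 did not overlap downwards and 1, Emx2, upwards, against 27.7% and 20.3% of all genes. Of 18 nephron progenitor genes, 2 were at least 4-fold higher (Pax2 and Bmp7) and 2 lower (Wt1 and Osr1), with a median of -0.31. Osr1, the earliest factor of the intermediate and lateral plate mesoderm in this list, was 14.8-fold lower in the duct cells (-1.04 and -2.67, against 1.40 and 2.68 in the Wt1-GFP cells). Of the nephron progenitor list, 4 did not overlap upwards and 7 downwards, against 20.3% and 27.7% of all genes. Of 17 lateral plate genes, 3 were at least 4-fold lower in both pairs and 0 higher, with a median of -1.88. Among the 3 were Fgf10, described further on, and the transcription factor Hand2 (at least 5.17-fold). By direction alone, 12 of the 17 were lower and 5 higher in the duct cells. Without overlap there were 9 downwards and 4 upwards, against 27.7% and 20.3% of all genes.

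Retinoic acid genes divided by enzyme and by position. Of 22, 1 was at least 4-fold higher and 4 lower in both pairs, with a median of -0.63. Adh1, a retinol dehydrogenase, was -5.17 and -4.49 in the duct cells, where 1 array measured it, against 3.42 and 1.22 in the Wt1-GFP cells, at least 123-fold lower. Dhrs3, which reduces retinal back to retinol, was 6.01-fold lower, and Rxra, a retinoid receptor, 4.92-fold lower, though its difference was 0.09 by another probe and 1.8 with slide row as a term. Adh1, Aldh1a2 and Dhrs3 were thus lower at both positions of the duct. The other synthesising enzymes were highest on the caudal duct array. Aldh1a3 was -2.31 and 4.39 in the duct cells, against -4.51 and -4.53 in the Wt1-GFP cells, so its rostral level was far below its caudal one. Aldh1a1 had -0.07 and 4.03 in the duct cells and -1.14 and -5.22 in the Wt1-GFP cells, so it too was higher caudally in the duct. Cyp26a1, the enzyme that breaks retinoic acid down, was 0.23 and -0.90 in the duct cells and -5.52 and -3.15 in the Wt1-GFP cells (at least 9.32-fold higher).

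**Figure D3:**
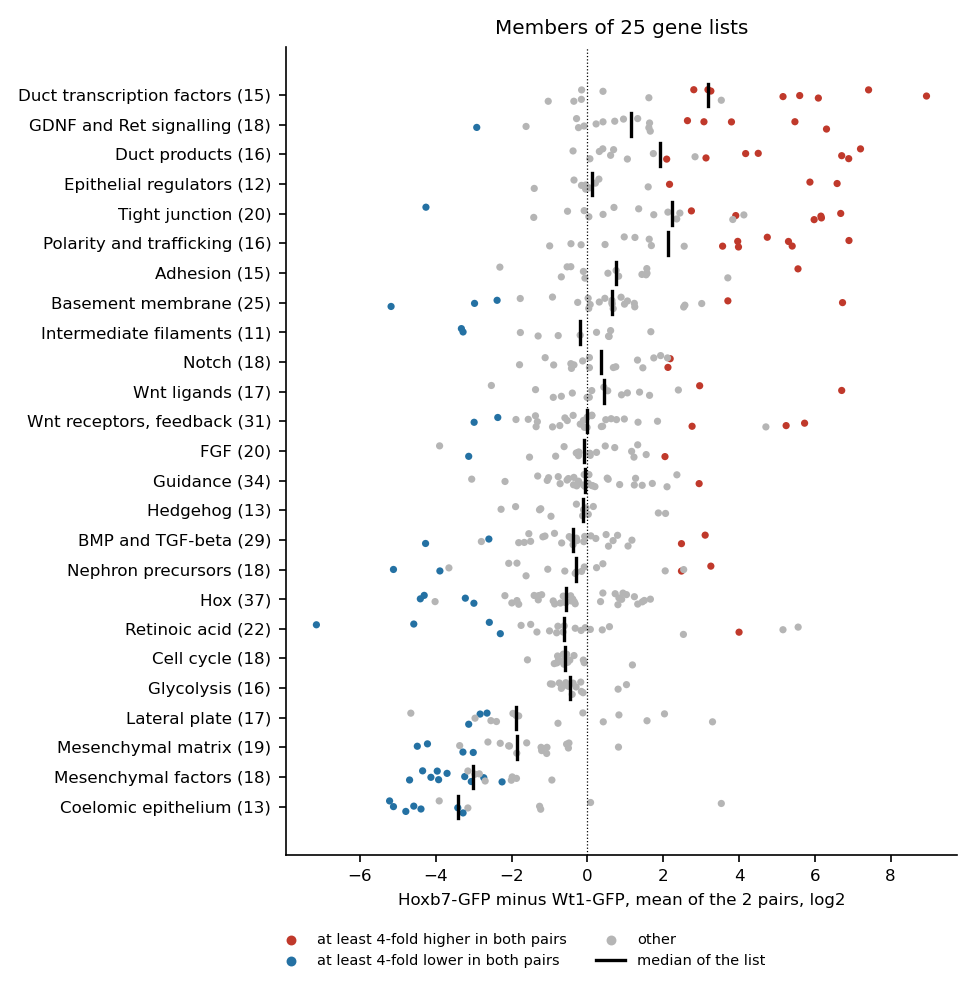
For each gene list, points give the log2 duct minus Wt1-GFP difference of each measured member and a bar gives the list median, for 25 lists ordered by role, with a dotted line at 0 and colours for members at least 4-fold apart in both pairs. Duct transcription factors (median 3.18) and tight junction genes (2.24) lie at the higher end, and coelomic (-3.42) and mesenchymal factors (-3.01) at the lower end.

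In Wnt signalling, receptors and feedback genes went both ways. Of 31 receptors and feedback genes, 14 were higher in the duct cells and 17 lower, with a median of -0.01, near that of all genes. At least 4-fold in both pairs, 3 were higher and 2 lower. Without overlap there were 9 upwards and 7 downwards, against 20.3% and 27.7% of all genes. Dkk1, a secreted inhibitor, was 2.12 and 3.59 in the duct cells, against -2.87 and -2.88 in the Wt1-GFP cells, 53.1-fold higher. Lgr5, a receptor for R-spondins, was at least 18.3-fold higher. Rnf43, a ligase that removes Wnt receptors, was -2.08 and -0.84 in the duct cells, against -6.09 and -6.25 in the Wt1-GFP cells, at least 6.33-fold higher over the mean but not 4-fold in each pair. The receptors split, with Fzd6 6.78-fold higher while Fzd1 was 7.94-fold and Ror1 5.15-fold lower. Of 17 measured Wnt ligands, 2 were at least 4-fold higher in both pairs, Wnt9b and Wnt8b (7.79-fold, though 0.2 by another probe on the log2 scale), and 0 lower.

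Of 20 measured FGF genes, 1 was at least 4-fold higher, the receptor Fgfr4 (4.13-fold, though another of its probes gave a difference of -0.04), and 1 lower, Fgf10, a mesenchymal ligand (8.76-fold, -1.47 and -2.54 in the duct cells, 0.97 and 1.28 in the Wt1-GFP cells). Of 29 measured BMP and TGF-beta genes, 2 were higher and 2 lower. Bmp7, a ligand made by the ureteric epithelium, was 5.59-fold higher and Id4, an inhibitory helix-loop-helix factor, 8.61-fold higher. The antagonists Bmper and Fst (follistatin) were at least 10.8-fold and at least 5.04-fold lower. Of 18 Notch genes, 2 were higher and 0 lower, the ligand Jag1 (4.36-fold) and the feedback inhibitor Nrarp (4.55-fold). Of 13 Hedgehog genes none was 4-fold apart, and of 34 guidance genes 1 was higher, the semaphorin Sema3d (at least 6.30-fold).

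Ligands and receptors were set side by side for 32 known pairs, 31 of them measured. In 6 pairs the ligand was lower and the receptor higher in the duct cells, each without overlap between sorts though by as little as 0.63 on the log2 scale (Lgr4, -0.64 with slide row as a term), and in 6 the ligand was higher and the receptor lower. Both were higher in 3 and both lower in 2, and 14 overlapped in at least 1 partner. The first kind held Gdnf with Ret and with Gfra1, Fgf10 with Fgfr2, Cxcl12 with Cxcr4, Hgf with Met and Rspo1 with Lgr4. Gdnf, the ligand of Ret, was -3.40 and -3.46 in the duct cells, against -3.30 and -0.33 in the Wt1-GFP cells, so its caudal Wt1-GFP array alone stood high. Hgf, the ligand of the Met receptor, was -5.32 and -6.01 in the duct cells, against -2.29 and -1.98 in the Wt1-GFP cells, while Met was 0.17 and 0.52 in the duct cells and -3.19 and -2.65 in the Wt1-GFP cells. The second kind held Wnt9b with Fzd1, Wnt11 with Ror2, Jag1 with Notch2, Efnb2 with Ephb4, Pdgfa with Pdgfra and Npnt with Itga8. Some of these differences were small too, at -0.37 for Ephb4 and -0.42 for Notch2, and that of Pdgfa was -0.22 with slide row as a term. Since 20.3% of all genes lay higher and 27.7% lower without overlap, some such pairings are the background of this count.

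**Figure D4:**
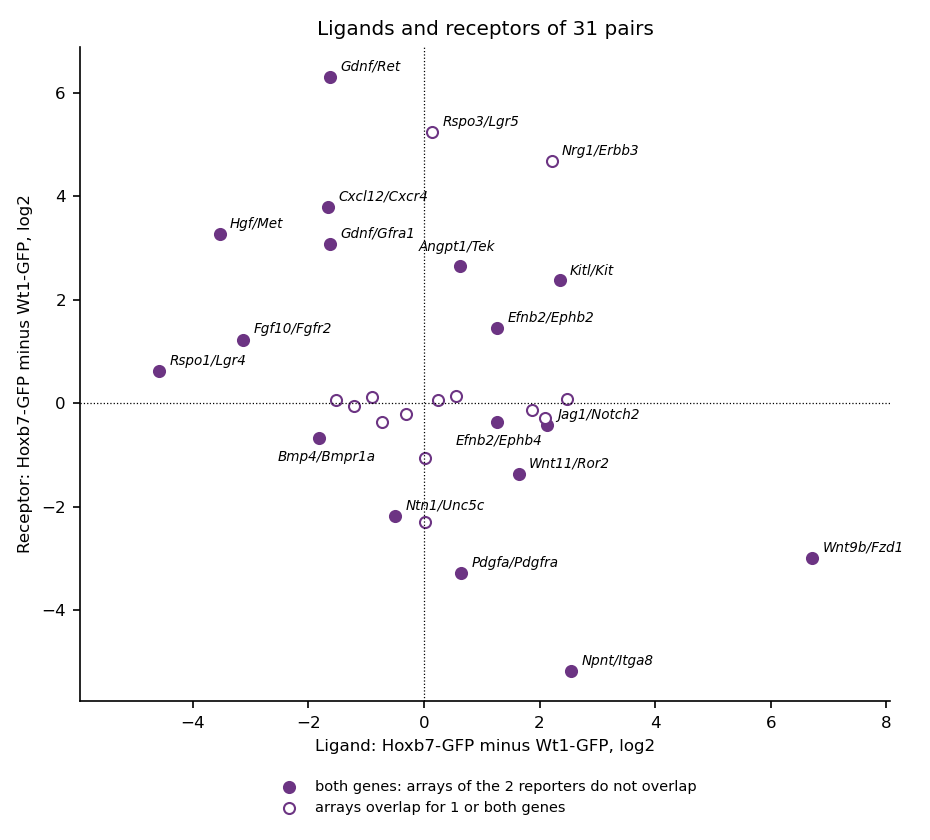
Each point is 1 of 31 pairs, with the log2 duct minus Wt1-GFP difference of the ligand on the x axis and of the receptor on the y axis, filled where the arrays of the sorts overlapped for neither gene. The pairs of Ret, Met and Cxcr4 with Gdnf, Hgf and Cxcl12 lie at the upper left, with the receptor higher and the ligand lower in the duct cells.

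Hox genes, whose clusters are read out along the body axis, differed by paralogue group and cluster. Of 37 measured, 0 were at least 4-fold higher and 4 lower in both pairs. All 6 measured genes of paralogue groups 3 to 8 of the Hoxb cluster were higher in the duct cells (differences from 0.73 to 1.66), as were all 4 of groups 1 to 8 of the Hoxd cluster (from 1.03 to 1.5), although Hoxd1 was at -0.84 with slide row as a term. In the Hoxa cluster 6 of the 7 genes of groups 1 to 8 were lower (from -1.81 to 0.35), as were all 4 of groups 4 to 8 of the Hoxc cluster (from -1.4 to -0.34). Of 23 genes of groups 1 to 8, 8 did not overlap upwards and 8 downwards. Of 14 genes of groups 9 to 13, 0 did so upwards and 7 downwards, with a median of -1.57. Over all genes the shares were 20.3% upwards and 27.7% downwards. Hoxb1 was -6.27 and -5.76 in the duct cells, where neither array measured it, against -2.63 and -0.80 in the Wt1-GFP cells (at least 8.84-fold lower), and Hoxb2, also lower in the duct cells, stood at 1.26 and 1.22 in the duct cells and 1.46 and 1.90 in the Wt1-GFP cells. Hoxc10 was -2.39 and 2.85 in the duct cells and 3.1 and 6.17 in the Wt1-GFP cells, so it was higher caudally in both sorts and 21.2-fold lower in the duct cells. Hoxa10 was 9.32-fold lower in the duct cells and Hoxd10 7.97-fold lower. The labels give position only as a rostral or a caudal part, so a difference in axial level between the sorts cannot be told apart from a difference in cell type.

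**Figure D5:**
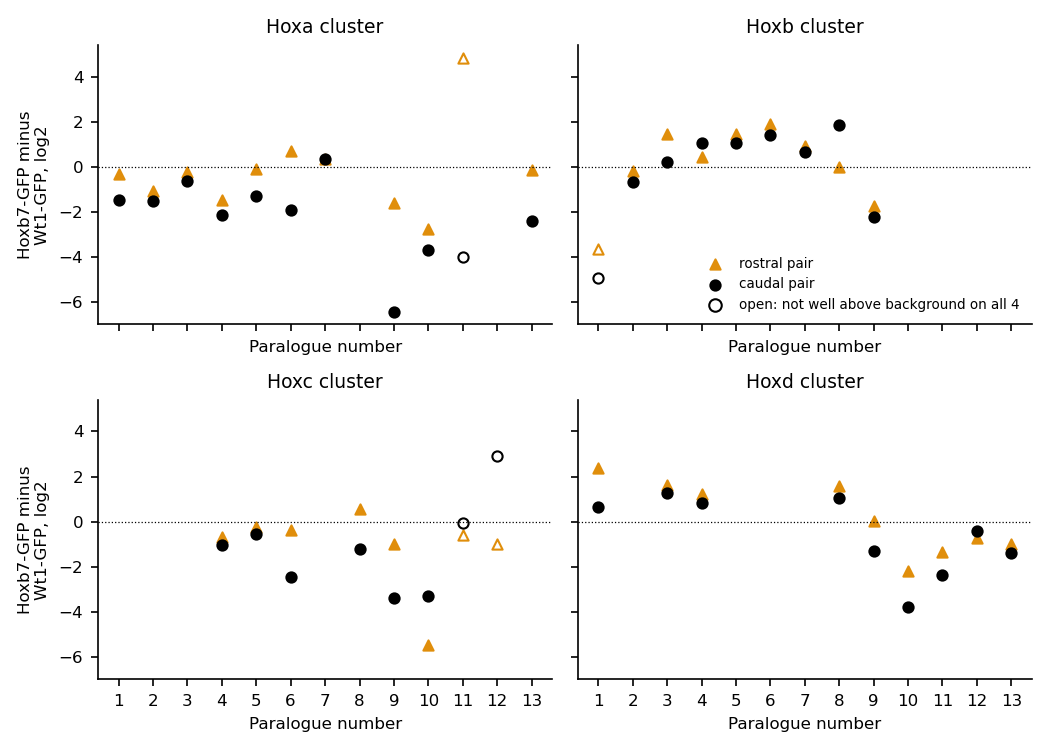
Log2 duct minus Wt1-GFP differences of the Hox genes against paralogue number, 1 panel per cluster, with triangles for the rostral and circles for the caudal pair and open symbols for genes not well above background on all 4 arrays. Both pairs lie above 0 for groups 3 to 7 of the Hoxb cluster and below 0 for Hoxc10, Hoxa10 and Hoxd10.

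A test of whether the duct difference itself changed between positions called no gene (0%, lowest limma adjusted p = 0.67), with 1763 genes at an unadjusted p of 0.05 (6.43%). In that model the position effect of the duct side was averaged over the E9.5 and E10.5 duct arrays and 1 residual degree of freedom was left. The genes with the widest change between positions are given as values only. Hoxa9 was -0.25 and -3.32 in the duct cells and 1.36 and 3.11 in the Wt1-GFP cells, so it was lower caudally in the duct and higher caudally in the mesoderm. Grem1, a BMP antagonist, was -1.71 and -2.32 in the duct cells, against -0.42 and 1.98 in the Wt1-GFP cells. Asb4, a ubiquitin ligase subunit, ran opposite, with 3.82 and 5.37 in the duct cells and 5.35 and 1.82 in the Wt1-GFP cells, and Ibsp (bone sialoprotein) was -3.66 and -2.86 in the duct cells and 2.28 and -1.67 in the Wt1-GFP cells. By size alone, 19 genes were at least 4-fold higher in the rostral and 4-fold lower in the caudal pair, and 9 the reverse. On the caudal duct array 16 of 20 tight junction, 17 of 25 basement membrane and 10 of 16 polarity genes had their top level, against 1, 1 and 3 on the rostral duct array. For adhesion genes these counts were 7 and 3 of 15, for duct products 8 and 7 of 16, and for epithelial regulators 3 and 4 of 12. Of all 27400 genes, 5860 had their top level on the caudal duct array.

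The rostral duct array also carried genes of neurons. Of 14 neural markers, 2 (Tubb3 and Dcx) were at least 4-fold higher in both pairs and 0 lower, and 10 had their highest level on it, as did 7128 of all 27400 genes, and their summed linear level, in multiples of the 75th percentile signal, was 267.9 and 52.1 on the rostral and caudal duct arrays, against 46.4 and 35.1 on the Wt1-GFP arrays. Tubb3, a neuronal tubulin, was 6.45 and 3.17 in the duct cells and 2.27 and 0.76 in the Wt1-GFP cells. Stmn2 (stathmin 2), a protein of growing axons, was 3.47 and -3.39 in the duct cells and -6.20 and -6.37 in the Wt1-GFP cells, so only the rostral duct array stood high. Nefl, a neurofilament, had 6.54 and 1.34 in the duct cells and 1.26 and 2.0 in the Wt1-GFP cells. Neural crest markers, among which Tfap2a and Erbb3 were at least 4-fold higher in both pairs, summed to 30.5 and 10.65 in the duct cells and to 5.03 and 8.65 in the Wt1-GFP cells. In the caudal pair the median difference was 3.76 for duct factors, 2.92 for tight junction genes and 2.65 for polarity genes, and in the rostral pair 2.47, 1.55 and 1.94. The part of neural cells in these values was not tested.

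Markers of other cells were measured in both sorts. The 14 endothelial markers summed to 8.35 and 10.9 in the duct cells and to 7.42 and 7.17 in the Wt1-GFP cells. Of them, 10 did not overlap upwards and 2 downwards, against 20.3% and 27.7% of all genes. Their median difference was 1.625, with 0 at least 4-fold higher in both pairs and 1 lower. The 10 measured blood markers summed to 26.9 and 40.8 in the duct cells and to 23.0 and 19.5 in the Wt1-GFP cells. Endoderm markers summed to 0.66 and 2.35 in the duct cells and 0.61 and 0.74 in the Wt1-GFP cells, with Afp, Apoa1, Apoa4 and Hnf4a not above background on any of the 4 arrays. Heart markers summed to 23.4 and 2.12 in the duct cells and to 15.5 and 3.69 in the Wt1-GFP cells, high on the rostral array of each sort, and somite markers, with Meox1 among them, to 5.32 and 5.50 in the duct cells and to 15 and 13.5 in the Wt1-GFP cells. Surface ectoderm markers, which share Gata3 with the duct, summed to 95.5 and 92.4 in the duct cells and to 88.4 and 85.7 in the Wt1-GFP cells. Most of that sum was 1 probe of Trp63, an epidermal factor, with 6.49 and 6.33 in the duct cells and 6.37 and 6.35 in the Wt1-GFP cells. Of the 9 measured, 2 (Gata3 and Dlx5) were at least 4-fold higher and 0 lower, and 5 did not overlap upwards and 2 downwards. Of 5 measured germ cell markers 0 were 4-fold apart. The part of these cells in the results was not tested, and in sorted populations fewer cells of a type and less RNA per cell cannot be told apart.

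Among the genes with the largest differences in both pairs were some outside these pathways. H2-DMb2, a chaperone of class II antigen presentation, was 2.95 and 2.76 in the duct cells, against -6.18 and -2.99 in the Wt1-GFP cells, at least 80.5-fold higher, and the other member of the 9 measured class II genes that was at least 4-fold higher was its close copy H2-DMb1, whose RNA its probe may share. Septin4, a filament GTPase, was at least 59.5-fold higher and Syt13, a synaptotagmin, at least 42.5-fold higher. On the other side, Alx1, a homeobox factor of mesenchyme, was -2.34 and -7.03 in the duct cells, against 2.36 and 1.75 in the Wt1-GFP cells (at least 52.1-fold lower). Tnni2, a muscle troponin, was 18.6-fold lower, Ptx3, a secreted pentraxin, 15-fold lower, and U90926 and 2610528A11Rik, left without a role here, at least 52.5-fold and at least 31.4-fold lower.

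Cell cycle and glycolysis genes differed by small amounts. None of 18 cell cycle genes was 4-fold apart, with a median of -0.58. Of them 15 did not overlap downwards, against 27.7% of all genes. Ccnd1 (cyclin D1) was the member without overlap upwards, at 4.54 and 4.54 in the duct cells and 3.34 and 3.36 in the Wt1-GFP cells. None of 16 glycolysis genes was 4-fold apart either, and 11 did not overlap downwards, with a median of -0.45.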

How the data were processed

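RNA of sorted cells was amplified with the NuGEN WT-Ovation Pico system and labelled with Cy3, per the labels. Per the file headers, Agilent Feature Extraction 10.7.3.1 wrote each deposited intensity, a spot's signal after background subtraction and detrending. The deposited matrix holds log2 values and served as an alternative. Of 62976 spots per array, outlier spots were left out and repeated spots averaged, which left 55663 probes. Log2 signals were scaled to the 75th percentile of each array, which lay between 242.9 and 303.8 on the 4 compared arrays. Precision is limited by how few arrays there are.

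Probes had to be well above background on 1 or more of the 4 compared arrays, and a gene with several was shown by its brightest, which gave 27400 genes. Names came from accessions and symbols matched to RefSeq for 17431 of the 27400, and the others kept the name given by the array. Of the 245 genes at least 4-fold higher and the 164 lower, 205 and 135 had a RefSeq name. The model, limma 3.58.1 in R 4.3.3, was fitted to all 8 arrays with 5 groups and position, and was tested on simulated data. For the 4-fold count and for bounds, levels not well above background were raised to the lowest well-above level of their array.

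Genes named were the label and duct genes, the 15 with the largest smaller pair difference each way, up to 7 per list by that measure, and 5 each way for the position test. Others were named to complete a pathway or a count, after their values were seen, and some genes are not reported here. The members and lists were chosen with earlier results of these data known, and 550 of 583 listed names were tested. Alternatives covered background correction, normalization, filters, probe choice, prior variance, position, slide row, fold threshold and leaving out arrays.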

Additional observations from a re-analysis of the deposited data

How the results depend on the processing

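With 1 array per sort and position, the adjusted test called 0 genes in the main model, and also under quantile normalization, the deposited matrix, either dim-probe filter, the median of probes, floored levels, slide row as a block, the 4 arrays alone and each left-out array. Normexp background correction called 181 genes (99 higher and 82 lower in the duct cells), the intensity trend 694 (306 and 388) and the 8 arrays without position 17 (15 and 2). The intensity trend with slide row as a block, chosen after seeing the data, called 0. The position test called 1 gene with the intensity trend and 0 with normexp, quantile normalization and floored levels, the other settings run for it. The causes were not tested.

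The 4-fold count of 245 higher and 164 lower genes became 88 and 57 with normexp, which draws dim signals together. With the deposited matrix 383 were higher and 196 lower. There dim levels were not raised to the lowest well-above level, so these 2 numbers follow another rule than the main count. At 2-fold in both pairs the main count was 801 and 656, and at 8-fold 87 and 39. The rostral pair alone gave 603 and 554, and the caudal pair alone 857 and 625. It was 241 and 165 with quantile normalization and 229 and 153 with the median of probes.

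Among the 131 genes named, 8 changed sign under some setting. With slide row as a block the differences were 0.0159 for Cdh2, -0.64 for Lgr4, -0.22 for Pdgfa, -0.838 for Hoxd1 and 1.8 for Rxra, also with the intensity trend. With single arrays left out, Nefl ranged from -0.83 (without the rostral duct array) to 5.44 and Asb4 from -1.72 to 3.75 (below 0 without the caudal duct or the caudal Wt1-GFP array), and Trp63 from -0.0291 to 0.127. Medians near 0 turned as well: FGF genes reached 0.0798 with quantile normalization, 0.117 with the median of probes and -0.0443 to 0.056 without single arrays, germ cell markers 0.0451 with quantile normalization, and somite markers 0.114 with the median of probes and 0.0383 to 0.117 without single arrays. Arrays were paired by rostral and caudal position, and the paired fit of these 4 arrays called 0 genes. By replicate number no paired analysis was possible because such numbers only name samples here. Levels near background give bounds only.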
